A study of Homo sapiens with 8 samples.

Results

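The mitochondrial iron-sulfur cluster assembly machinery was followed through 9 genes, NFS1, LYRM4, ISCU, HSCB, GLRX5, ISCA1, ISCA2, NFU1 and BOLA3, picked by gene symbol from the 60592 gene entries of each deposited expression file. All 9 were found, once each, and all 9 were at 1 FPKM or more in all 8 libraries (FPKM, a fragment count corrected for gene length and library size), so none was lost to the filter on low values. The cells were WSU-DLCL2, an established line of diffuse large B cell lymphoma, a cancer of B lymphocytes. Control cells, given the genotype WT in the labels, and cells with FDX1 overexpression (FDX1-OE) were each kept for 48 h with 15 nM elesclomol (ES), a copper ionophore, or with the solvent DMSO alone. This gave 4 groups of 2 libraries, which are called control DMSO, control ES, FDX1-OE DMSO and FDX1-OE ES. The vector and promoter used for FDX1, whether FDX1-OE was 1 clone or a pool, and whether control cells carried an empty vector were not given in the sources used here. Nor do they state that replicates were grown as separate cultures, so each p-value reflects the spread among these samples only, and that spread may be technical.

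Iron-sulfur clusters are small assemblies of iron and sulfide that enzymes of respiration, metabolism and DNA maintenance hold as cofactors. In mitochondria the cysteine desulfurase NFS1, held in a complex by LYRM4, supplies sulfur to the scaffold ISCU, on which a cluster of the 2Fe-2S kind is built with electrons from a ferredoxin. The cochaperone HSCB then helps to release the cluster to the glutaredoxin GLRX5, ISCA1 and ISCA2 take part in making the larger 4Fe-4S clusters, and NFU1 and BOLA3 carry these to chosen enzymes, among them lipoic acid synthase. FDX1 is a mitochondrial ferredoxin that binds elesclomol and is required for protein lipoylation.

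The results turn on ISCU and NFS1, the scaffold and the sulfur donor, so the bases just upstream of their gene starts are shown, 5′ to 3′ on the strand of each gene, from RefSeq on GRCh38.p14, up to the first base of the GENCODE gene model. The ISCU stretch is chr12:108562346-108562581 (plus strand, 236 bases) and the NFS1 stretch is chr20:35699360-35699602 (minus strand, 243 bases). Capitals mark matches to the motifs searched.
ISCU: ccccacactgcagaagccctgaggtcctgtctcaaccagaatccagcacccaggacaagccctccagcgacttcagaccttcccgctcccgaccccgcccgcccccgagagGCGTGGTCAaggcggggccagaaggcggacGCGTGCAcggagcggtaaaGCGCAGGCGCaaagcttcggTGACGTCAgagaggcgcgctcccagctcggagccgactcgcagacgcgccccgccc
NFS1: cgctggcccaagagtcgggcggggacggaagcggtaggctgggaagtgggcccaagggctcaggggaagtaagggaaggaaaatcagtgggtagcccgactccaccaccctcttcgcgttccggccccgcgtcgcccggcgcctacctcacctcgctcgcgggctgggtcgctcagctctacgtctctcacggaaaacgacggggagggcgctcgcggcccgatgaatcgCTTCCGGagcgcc
The search covered the 250 bases before the RefSeq start on both strands for the cAMP response element TGACGTCA (CRE), an antioxidant response core TGACNNNGC, a metal response core TGCACNC or TGCGCNC, a C/EBP-ATF composite TGATGNAA, the CCAAT box CCAAT, an ETS site CCGGAAG and an NRF1 site (GCGCA and GCGC with any base between them). The ISCU stretch held, from its 5′ end, the antioxidant core, the metal response core, the NRF1 site and the CRE, each 1 time, in letters that did not overlap. Among 35116 human promoters cut to the same length, the CRE was found in 1.65%, the NRF1 site in 5.07%, the antioxidant core in 10.9% and the metal response core in 24.8%. Of the bases searched before ISCU 69.6% were G or C, against a median of 58% over these promoters. The shares were not matched for this. The NFS1 stretch held only the ETS site, which 8.52% of promoters hold. LYRM4 held the C/EBP-ATF composite (3.14% of promoters). CCAAT boxes, present in 32% of promoters, were found before a RefSeq start of HSCB, GLRX5, ISCA1 and ISCA2, though not before every RefSeq start of HSCB. The metal response core was also found before that of ISCA1. For GLRX5 and ISCA1 the bases searched lie inside the GENCODE gene model. NFU1 and BOLA3 held none of the 7 motifs. A match is a run of letters and not a measured binding site.

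FDX1 itself followed its label. It was listed at 10.8 and 10.4 FPKM in control DMSO, 59.8 and 56.0 in FDX1-OE DMSO, 9.88 and 10.0 in control ES, and 60.7 and 59.4 in FDX1-OE ES, so the FDX1-OE libraries stood 5.47-fold above control in DMSO and 6.03-fold above in ES. The FDX1-OE ES libraries stood apart from the other 6 in several ways. Their FPKM summed to 408018 and 403024 against 445716 to 451027 elsewhere, and the 13 mitochondrially encoded mRNAs made up 14.7% and 11.9% of the sum against 16.9% to 17.6%. Their replicates also differed more, with a median absolute log2 difference of 0.165 against 0.075 to 0.0876 in the other groups. The B cell markers MS4A1, CD79A, CD79B, PAX5 and CD22 were at 1 FPKM or more in every library. No T or NK cell marker reached 1 FPKM. Of the 6 myeloid markers only AIF1 did, and of the 6 epithelial and fibroblast markers only DCN. With ES, AIF1 was called higher in control cells (difference in log2(FPKM + 1) 0.85, limma adjusted p = 0.0319, called where under 0.05) and in FDX1-OE cells (0.64, adjusted p = 0.014), and DCN was called lower in FDX1-OE cells (-0.67, adjusted p = 0.0027). Of the B cell markers, CD79B (-0.34, adjusted p = 0.00437) and CD22 (-0.53, adjusted p = 0.000254) were called lower with ES in FDX1-OE cells, and PAX5 (0.28, adjusted p = 0.0147) and CD79A (0.22, adjusted p = 0.0233) higher. The part of these library and marker differences in the results below was not tested. In bulk RNA, fewer cells of a kind and less RNA per cell cannot be told apart.

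In control DMSO cells the members covered a wide range of levels. GLRX5 was the highest, with 53.5 and 50.7 FPKM and a place above 89.5% of the 12063 genes tested, and ISCA2 was the lowest, with 5.09 and 4.91 FPKM and a place above 37.6%. Between them lay, in order of mean FPKM, BOLA3 (29.9), ISCU (25.4), NFU1 (22.4), ISCA1 (19.8), NFS1 (19.2), LYRM4 (17.8) and HSCB (6.21), and no neighbours in this order overlapped. HSCB and ISCA2 were the only members below the median of all genes tested, 8.56 FPKM. The order changed with ES in FDX1-OE cells: ISCU (39.9 FPKM) moved level with BOLA3 (38.0), their libraries overlapping, ISCA1 (24.3) overlapped NFU1 (27.8), and NFS1 (14.9) dropped below LYRM4 (19.4) to the seventh place. In FDX1-OE DMSO the neighbours NFS1, ISCA1 and LYRM4 overlapped each other in turn. In control ES the mean of NFS1 (18.1) was also below that of LYRM4 (18.7). There LYRM4, ISCA1 and NFS1 overlapped in turn, as did HSCB and ISCA2. The 9 levels summed to 192.6 to 202.4 FPKM in the DMSO libraries and to 222.7 to 228.4 in the ES libraries.

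**Figure D1:**
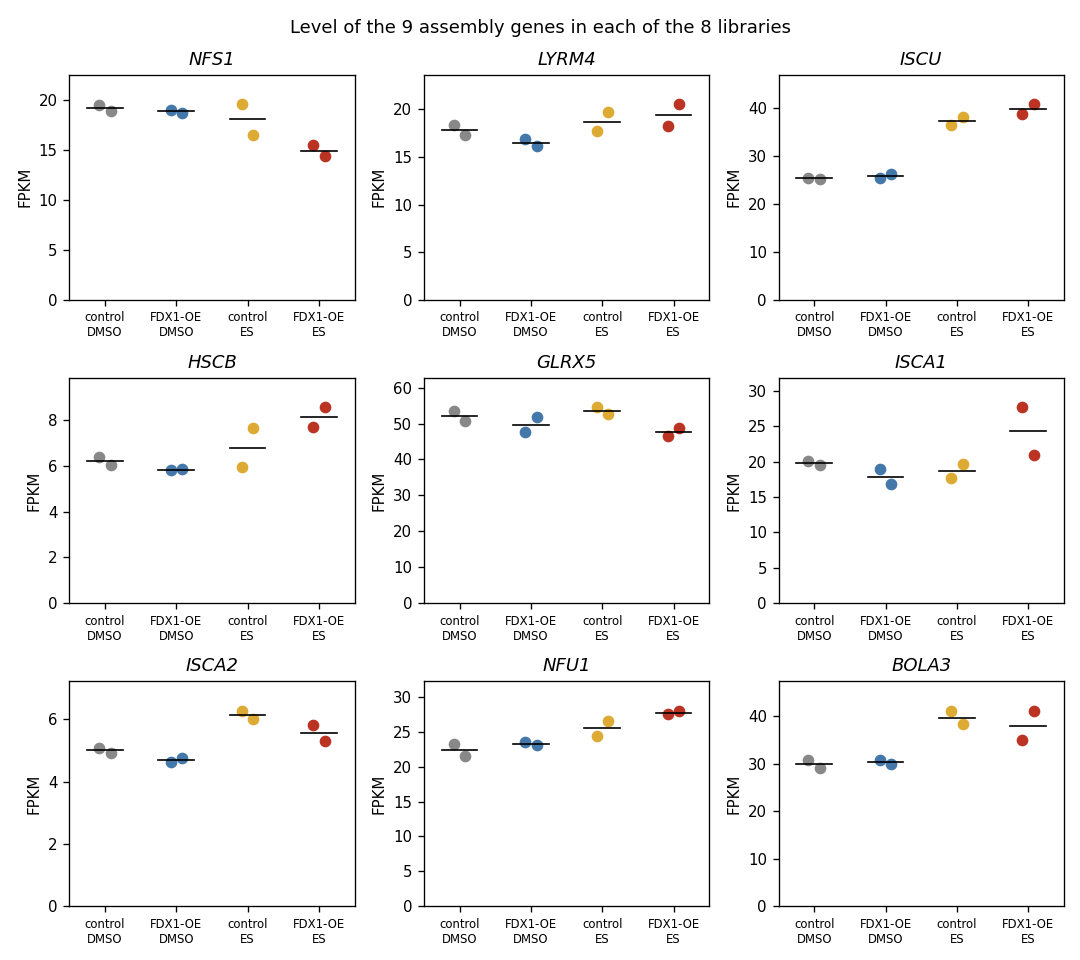
FPKM of each of the 9 assembly genes (vertical axes, starting at 0) in the 8 libraries, 2 points per group with a bar at the mean, groups along the horizontal axis. ISCU separates all 4 ES libraries (36.4 to 40.9 FPKM) from all 4 DMSO libraries (25.3 to 26.3), and NFS1 is lowest in the FDX1-OE ES libraries (15.5 and 14.4).

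With ES, transcripts of the scaffold ISCU rose in control cells and in FDX1-OE cells, and those of BOLA3 rose in both as well. In FDX1-OE cells HSCB, ISCA1 and NFU1 also rose and NFS1 fell. Of all genes tested, 6.74% were called higher and 1% lower in control cells, and 47.1% and 13.7% in FDX1-OE cells. Of these rises, only those of ISCU were still called with libraries scaled by median ratios or quantiles. The NFS1 fall was called under both of these scalings, but not with libraries scaled to equal FPKM totals. Overexpression of FDX1 without the drug moved none of the 9 past the test. Differences were tested as log2(FPKM + 1), a scale that understates the change of low genes, with limma fitted to all genes. Called genes are those with an adjusted p (Benjamini-Hochberg) under 0.05. The fit gives each gene 1 spread, pooled over the 4 groups, although the FDX1-OE ES replicates differed more. SEs and intervals may thus be too narrow where that group is compared and too wide elsewhere. Leaving out a library of a group not compared can also change a call, through the pooled spread.

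The genes of cluster building parted ways. ISCU, the scaffold, was listed at 25.4 and 25.3 FPKM in control DMSO, 25.5 and 26.3 in FDX1-OE DMSO, 36.4 and 38.1 in control ES, and 38.8 and 40.9 in FDX1-OE ES. The ES libraries of each cell kind lay well above its DMSO libraries, with no overlap. Such a separation upward was seen for 48.2% of all genes tested in control cells and 58.9% in FDX1-OE cells. The rise was 1.47-fold in control cells (log2 difference 0.54, SE 0.0624, limma with Benjamini-Hochberg adjusted p = 0.005) and 1.54-fold in FDX1-OE cells (0.60, SE 0.0624, adjusted p = 0.000132). The rise in FDX1-OE cells was called under all 18 alternative settings run. That in control cells was called under 15 of 18 and missed the threshold without control DMSO replicate 1 (adjusted p = 0.0505), without control DMSO replicate 2 (0.0572) and without control ES replicate 2 (0.0779). Its place among all genes differed between the cell kinds: the difference exceeded that of 95.5% of genes tested in control cells and of 78.5% in FDX1-OE cells. With ES 8300 of 12063 genes had a difference above 0 in control cells and 8513 in FDX1-OE cells.

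NFS1, the desulfurase that feeds ISCU with sulfur, was listed at 19.5 and 18.9 FPKM in control DMSO, 19.0 and 18.7 in FDX1-OE DMSO, 19.6 and 16.5 in control ES, and 15.5 and 14.4 in FDX1-OE ES. Only the FDX1-OE ES libraries lay below all others, and in control ES the replicates spanned the DMSO range. In FDX1-OE cells NFS1 fell with ES to 0.792 of its DMSO level (log2 difference -0.32, SE 0.0883, limma adjusted p = 0.0142), a difference above that of only 11.8% of genes tested. The call held under 15 of 18 alternative settings and was lost without FDX1-OE DMSO replicate 1 (adjusted p = 0.0699), without FDX1-OE DMSO replicate 2 (0.0594) and with all libraries scaled to equal FPKM totals (0.096). In control cells the difference was -0.09 (adjusted p = 0.551). The difference between these ES effects was -0.23 with a 95% interval from -0.516 to 0.057 (adjusted p = 0.221), so a fall particular to FDX1-OE cells was not shown.

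LYRM4, the small partner that holds NFS1 in its complex, was listed at 18.3 and 17.3 FPKM in control DMSO, 16.9 and 16.1 in FDX1-OE DMSO, 17.7 and 19.7 in control ES, and 18.3 and 20.5 in FDX1-OE ES. In FDX1-OE cells the ES libraries lay above the DMSO libraries with no overlap, as for 58.9% of all genes tested. The log2 difference of 0.22 missed the threshold (limma adjusted p = 0.0541), and in control cells the groups overlapped (0.06, adjusted p = 0.667).

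Ratios between partners within a library are not altered by any factor applied to the whole library. The ratio of NFS1 to ISCU in FPKM was 0.766 and 0.748 in control DMSO, 0.745 and 0.713 in FDX1-OE DMSO, 0.538 and 0.434 in control ES, and 0.398 and 0.353 in FDX1-OE ES. It was lower in every ES library than in every DMSO library, and lower in both FDX1-OE ES libraries than in both control ES libraries. The denominator ISCU itself rose with ES, by more than 95.5% of genes tested in control cells and 78.5% in FDX1-OE cells. NFS1 itself stood at -0.09 in control cells (limma adjusted p = 0.551). The ratio of HSCB to ISCU, given below, was also lower in every ES library than in every DMSO library. No further ratios to ISCU were compared. The ratio of LYRM4 to NFS1 was 0.86 to 0.941 in the DMSO libraries, 0.903 and 1.19 in control ES, and 1.18 and 1.43 in FDX1-OE ES, so only the FDX1-OE cells separated ES from DMSO. The ratios were not tested and are given as a description.

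**Figure D2:**
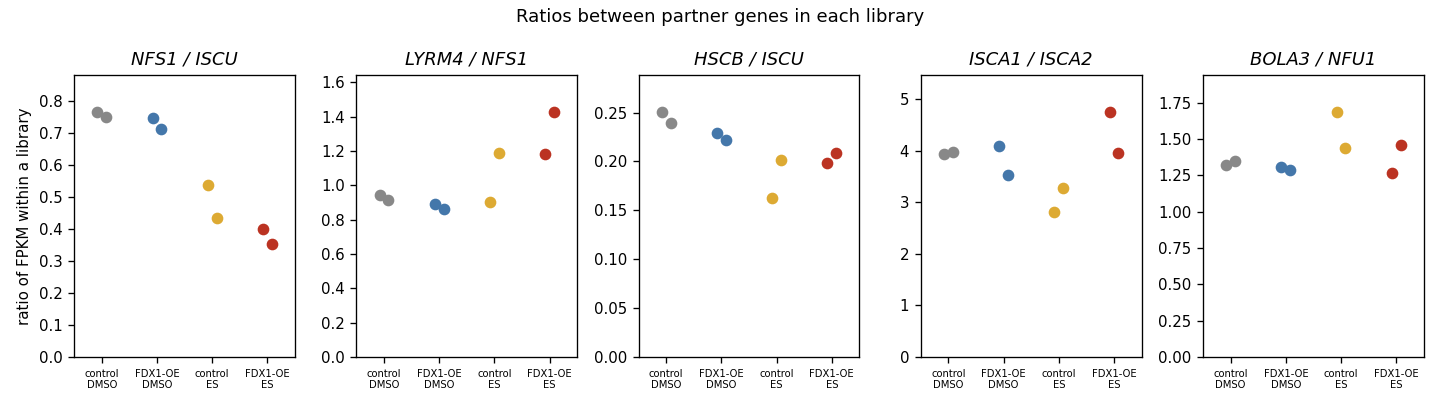
Ratio of FPKM between 5 pairs of partner genes within each library (vertical axes, starting at 0), 2 points per group, groups along the horizontal axis. NFS1 over ISCU goes from 0.713 to 0.766 in the DMSO libraries to 0.353 to 0.538 in the ES libraries.

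The transfer genes HSCB and GLRX5 differed from each other. HSCB, the cochaperone that hands clusters from ISCU to the chaperone system, was listed at 6.37 and 6.05 FPKM in control DMSO, 5.84 and 5.84 in FDX1-OE DMSO, 5.95 and 7.64 in control ES, and 7.70 and 8.56 in FDX1-OE ES. It rose 1.39-fold with ES in FDX1-OE cells (log2 difference 0.41, SE 0.114, limma adjusted p = 0.0136), while the control ES replicates lay on both sides of the control DMSO values (0.10, adjusted p = 0.589). The call in FDX1-OE cells was lost in 5 of 18 settings, 3 of which left out 1 library: FDX1-OE DMSO replicate 1 (adjusted p = 0.0591), FDX1-OE DMSO replicate 2 (0.0594) or FDX1-OE ES replicate 2 (0.0577). The ratio of HSCB to ISCU was 0.222 to 0.251 in the DMSO libraries and 0.163 to 0.209 in the ES libraries, lower in every ES library. Its denominator, ISCU, itself rose with ES. GLRX5, the glutaredoxin that receives the cluster, was listed at 53.5 and 50.7 FPKM in control DMSO, 47.5 and 51.7 in FDX1-OE DMSO, 54.5 and 52.7 in control ES, and 46.5 and 48.6 in FDX1-OE ES. Its ES and DMSO libraries overlapped in both cell kinds, with log2 differences of 0.04 in control cells (95% interval -0.113 to 0.193) and -0.06 in FDX1-OE cells (-0.212 to 0.094).

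Of the pair that serves 4Fe-4S clusters, ISCA1 was listed at 20.0 and 19.5 FPKM in control DMSO, 19.0 and 16.8 in FDX1-OE DMSO, 17.7 and 19.7 in control ES, and 27.7 and 20.9 in FDX1-OE ES. The highest value by far was FDX1-OE ES replicate 1. ISCA1 rose 1.36-fold with ES in FDX1-OE cells (log2 difference 0.41, SE 0.126, limma adjusted p = 0.0215), but without that library the difference was 0.22 (adjusted p = 0.0811), and without FDX1-OE DMSO replicate 2 it was 0.33 (adjusted p = 0.128). The call held in 12 of 18 settings, and was also lost with no filter on low values (adjusted p = 0.0833), with only the groups compared (0.0541), and with the median-ratio and quantile scalings. ISCA2, its partner, was listed at 5.09 and 4.91 FPKM in control DMSO, 4.64 and 4.76 in FDX1-OE DMSO, 6.28 and 5.996 in control ES, and 5.82 and 5.29 in FDX1-OE ES. Every ES library of ISCA2 was above every DMSO library, yet neither log2 difference passed the test. It was 0.25 in control cells (adjusted p = 0.11) and 0.20 in FDX1-OE cells (adjusted p = 0.0725). Of all genes tested, 48.2% in control cells and 58.9% in FDX1-OE cells had both ES libraries above both DMSO libraries. The share that separates all 4 ES from all 4 DMSO libraries was not counted. The ratio of ISCA1 to ISCA2 was 3.53 to 4.1 in the DMSO libraries, 2.82 and 3.28 in control ES, and 3.95 and 4.76 in FDX1-OE ES, so the pair did not keep a fixed ratio.

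Of the targeting genes, NFU1, a carrier that delivers 4Fe-4S clusters, was listed at 23.3 and 21.6 FPKM in control DMSO, 23.5 and 23.1 in FDX1-OE DMSO, 24.4 and 26.6 in control ES, and 27.5 and 28.1 in FDX1-OE ES. It rose 1.19-fold with ES in FDX1-OE cells (log2 difference 0.24, SE 0.0715, limma adjusted p = 0.018), a difference just below the median of all genes there. That call was lost without FDX1-OE DMSO replicate 1 (adjusted p = 0.0672) and without FDX1-OE DMSO replicate 2 (0.0933), and held in 13 of 18 settings. The others that lost it were library weights (adjusted p = 0.0566) and the median-ratio and quantile scalings. In control cells the NFU1 difference was 0.18 (adjusted p = 0.157), with the ES libraries above and no overlap, as for 48.2% of all genes tested.

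BOLA3, which works beside NFU1 on the lipoic acid synthase and respiratory complexes, was listed at 30.8 and 29.05 FPKM in control DMSO, 30.7 and 29.9 in FDX1-OE DMSO, 41.2 and 38.2 in control ES, and 34.9 and 41.1 in FDX1-OE ES. All 4 ES libraries were above all 4 DMSO libraries, and the share of all genes that separate in this way was not counted. Within a cell kind, both ES libraries were above both DMSO libraries for 48.2% (control) and 58.9% (FDX1-OE) of genes tested. It rose 1.33-fold in control cells (log2 difference 0.40, SE 0.0862, limma adjusted p = 0.0343) and 1.25-fold in FDX1-OE cells (0.31, SE 0.0862, adjusted p = 0.0136). In control cells the call held in 8 of 18 settings only: it was lost on leaving out any of 6 libraries, all but the FDX1-OE ES replicates. The FDX1-OE DMSO libraries are not in this comparison and bear on it only through the pooled spread. In FDX1-OE cells it was lost without FDX1-OE DMSO replicate 2 (adjusted p = 0.0747). The ratio of BOLA3 to NFU1 was 1.29 to 1.35 in the DMSO libraries, 1.69 and 1.44 in control ES, and 1.27 and 1.46 in FDX1-OE ES.

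**Figure D3:**
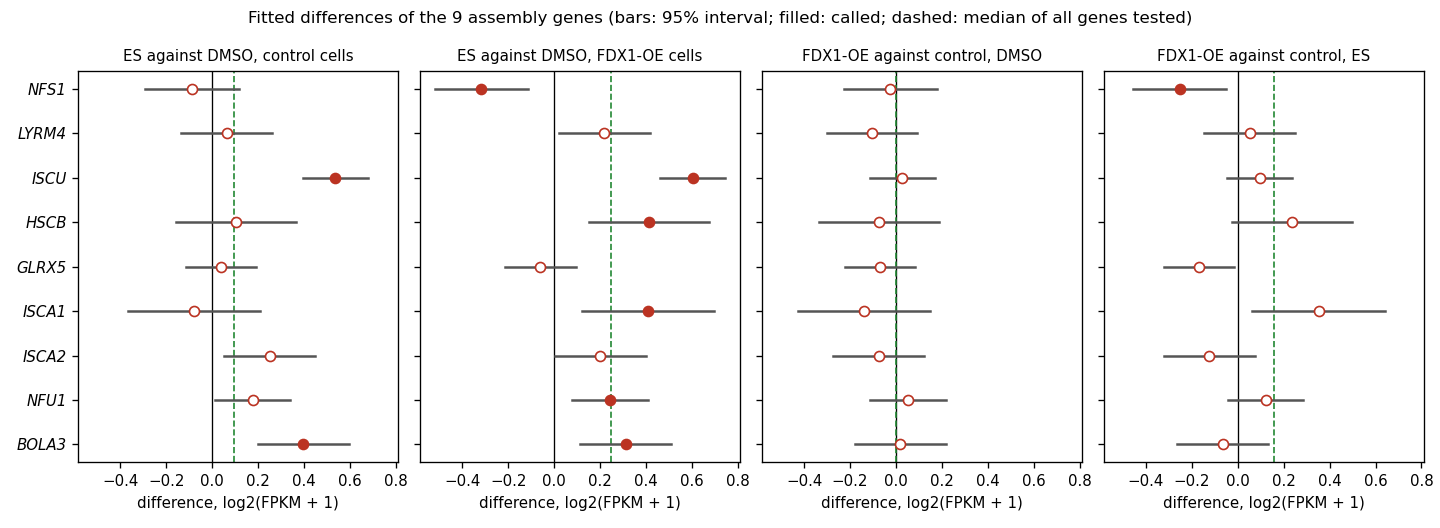
Fitted differences of the 9 genes in log2(FPKM + 1) (horizontal axes) for 4 comparisons, with 95% intervals as bars, filled points for genes called and a dashed line at the median of all genes tested. With ES, ISCU is the largest of the 9 in both cell kinds (0.54 and 0.60), and NFS1 is the only gene called lower (-0.32).

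These counts have to be read against the whole transcriptome. With ES in control cells 2 of 9 members were called higher and 0 lower, against 6.74% of all genes tested called higher and 1% called lower. At an unadjusted p below 0.05 there were 4 of 9, against 3305 of all 12063 genes. Libraries did not overlap for 4 members above and 0 below, against 48.2% and 17.1% of all genes. The median difference was 0.104 over the members and 0.0945 over all genes. With ES in FDX1-OE cells 5 of 9 were called higher and 1 lower, against 47.1% and 13.7% of all genes. Libraries did not overlap for 7 members above and 1 below, against 58.9% and 20.1%. The medians were 0.244 and 0.248. In FDX1-OE cells the members' shares were thus near those of all genes.

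The median of all genes was itself above 0, by 0.248 with ES in FDX1-OE cells and by 0.0945 in control cells, and it depended on how libraries were scaled. Scaling by median ratios or by quantiles set it to about 0, and scaling to equal FPKM totals raised it to 0.371 in FDX1-OE cells. Among the members in FDX1-OE cells the calls then went from 5 higher and 1 lower to 1 higher and 2 lower with median ratios, 1 and 1 with quantiles, and 7 and 0 with equal totals. Over all genes the calls went from 5682 higher and 1652 lower to 3069 and 3287, 2783 and 2937, and 7063 and 1093 in the same order. Relative to the median gene, the log2 difference with ES in FDX1-OE cells was 0.36 for ISCU, 0.17 for HSCB, 0.16 for ISCA1, 0.07 for BOLA3, -0.0044 for NFU1, -0.31 for GLRX5 and -0.57 for NFS1. The ISCU rise was called under each of these 3 scalings in both cell kinds. The NFS1 fall in FDX1-OE cells was called with median ratios (-0.59, adjusted p = 0.00108) and quantiles but not with equal totals. The rises of HSCB, ISCA1, NFU1 and BOLA3 in FDX1-OE cells were called neither with median ratios nor with quantiles, where NFU1 with median ratios stood at -0.03. With median ratios GLRX5 was called lower (-0.34, adjusted p = 0.00371). In control cells the median-ratio scaling kept ISCU (0.43, adjusted p = 0.0148) and not BOLA3 (0.29, adjusted p = 0.0918), and the calls over all genes went from 813 higher and 121 lower to 436 and 394, and with quantiles to 172 and 59.

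**Figure D4:**
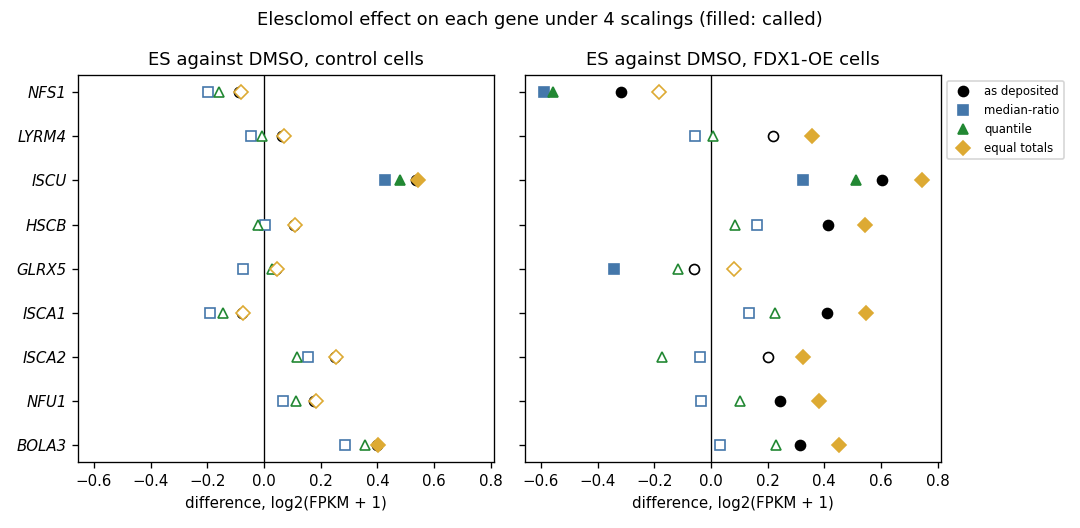
Difference between ES and DMSO in log2(FPKM + 1) (horizontal axes) for each gene under the deposited scaling and 3 others, control cells on the left and FDX1-OE cells on the right, filled where called. ISCU stays to the right of 0 under all 4 in both panels, and in FDX1-OE cells NFS1 stays to the left. There LYRM4, ISCA2 and NFU1 lie below 0 with median ratios, and GLRX5 lies above 0 with equal totals.

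FDX1 overexpression alone made no called difference to the 9 genes. In DMSO the log2 differences between FDX1-OE and control ran from -0.14 for ISCA1 to 0.05 for NFU1, 0 of 9 members passed (limma, adjusted p = 0.999 for each), and 0 of 9 had an unadjusted p below 0.05, against 420 of all 12063 genes. Over all genes 0.00829% were called higher, which is FDX1 alone, and 0% lower. The 95% intervals reached at most 0.43 from 0, that bound being the lower limit for ISCA1 (-0.427), so larger differences lie outside them. Libraries did not overlap for 1 member above (ISCU) and 4 below (LYRM4, HSCB, ISCA1 and ISCA2), against 19.5% of all genes above and 19.5% below. The median difference was -0.07 over the members and 0.000598 over all genes.

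Between FDX1-OE and control cells that both received ES, NFS1 was the only member called. It was lower in FDX1-OE cells, at 0.827 of the control ES level (log2 difference -0.25, SE 0.0883, limma adjusted p = 0.0486), a value close to the threshold that passed in 8 of 18 settings and was lost on leaving out 6 of the 8 libraries, all but control ES replicate 2 and FDX1-OE ES replicate 1. Without control ES replicate 1 it was -0.14 (adjusted p = 0.302). ISCA1 stood at 0.35 (adjusted p = 0.0535) and GLRX5 at -0.17 (adjusted p = 0.0724), neither past the threshold. ISCA1 and HSCB were each called higher in 2 of 18 settings. In all, 0 members were called higher and 1 lower, against 31.1% and 10.4% of all genes, and libraries did not overlap for 4 members above and 3 below, against 50.6% and 18.5%. The median difference was 0.051 over the members and 0.157 over all genes. Scaling by median ratios gave 0 higher and 3 lower (NFS1, GLRX5 and ISCA2), quantiles 0 and 3, and equal totals 4 and 0. Over all genes the same 3 scalings gave 1818 higher and 2218 lower, 1723 and 1788, and 5867 and 739, in place of 3757 and 1251.

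The test of whether the ES effect differed between the cell kinds called none of the 9, against 13.9% of all genes called higher and 5.06% lower. At an unadjusted p below 0.05 there was 1 of 9, against 4370 of all 12063 genes. ISCA1 had the largest difference, 0.49 (95% interval 0.082 to 0.898, adjusted p = 0.0867). It was called in 2 of 17 settings, with equal totals and without FDX1-OE ES replicate 2, where it was 0.68 (adjusted p = 0.0104). For ISCU the difference was 0.07 with an interval from -0.135 to 0.269, and for BOLA3 it was -0.08 with an interval from -0.364 to 0.196. The effects of ES on these genes in the cell kinds may therefore differ by amounts within those bounds. The median over the members was 0.07 and that over all genes 0.149. Over all genes 1681 were called higher and 610 lower, which became 705 and 1134 with median ratios, 686 and 714 with quantiles, and 3466 and 402 with equal totals.

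Other genes of iron-sulfur biology were counted in 4 lists. Of 11 other mitochondrial cluster genes, all tested, 4 were called higher and 2 lower with ES in FDX1-OE cells, against 47.1% and 13.7% of all genes. None was called in control cells, against 6.74% and 1%, and 1 of 11 had an unadjusted p below 0.05 there, against 3305 of 12063. IBA57, a partner of the ISCA proteins, was listed at 1.37 and 1.59 FPKM in FDX1-OE DMSO and at 2.26 and 2.85 in FDX1-OE ES (log2 difference 0.52, limma adjusted p = 0.00629). FDXR, the reductase that passes electrons to the ferredoxins, rose by 0.45 (adjusted p = 0.0206) and SLC25A28, a mitochondrial iron importer, by 0.38 (adjusted p = 0.0319). NDUFAB1, the mitochondrial acyl carrier protein that is bound by LYRM4 in the NFS1 complex, fell by 0.23 (adjusted p = 0.038). Its libraries went from 82.4 and 74.6 FPKM to 69.4 and 64.0. In control cells NDUFAB1 stood at 0.02 (adjusted p = 0.89), and the difference between these ES effects was -0.25 (adjusted p = 0.156). SLC25A37, another iron importer, stood at -0.15 (adjusted p = 0.0651). With median-ratio scaling this list had 0 higher and 3 lower, with quantiles 0 and 1, and with equal totals 4 and 0.

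Of 11 genes of cytosolic cluster assembly, 10 were tested, BOLA2 being below 1 FPKM throughout. In FDX1-OE cells 2 were called higher and 2 lower with ES, against 47.1% and 13.7% of all genes. None was called in control cells, against 6.74% and 1%, and 1 of 10 had an unadjusted p below 0.05 there, against 3305 of 12063. NDOR1, a reductase of the early cytosolic pathway, rose by 0.36 (limma adjusted p = 0.0132) and CIAO3, which passes clusters to the targeting complex, by 0.32 (adjusted p = 0.0294). The cytosolic glutaredoxin GLRX3 fell by 0.37 (adjusted p = 0.0291). In control cells it stood at -0.37 (adjusted p = 0.0976), and the difference between these ES effects was 0.0029 (adjusted p = 0.993). Of the targeting complex, CIAO2B stood at -0.25 (adjusted p = 0.121) and MMS19 at -0.11 (adjusted p = 0.189). Here the scaling decided the balance, with 0 higher and 8 lower under median ratios, 0 and 5 under quantiles, and 3 and 0 under equal totals.

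Recipients of the clusters were counted as mitochondrial proteins and as cytosolic and nuclear ones. Of 15 mitochondrial iron-sulfur proteins 14 were tested, MOCS1 being listed at 0, and in FDX1-OE cells 1 was called higher and 5 lower with ES, against 47.1% and 13.7% of all genes. None of the 14 was called in control cells, against 6.74% of all genes called higher and 1% lower. An unadjusted p below 0.05 was seen for 3 of 14 there, against 3305 of 12063. NDUFS7, a complex I subunit, fell by 0.53 (limma adjusted p = 0.000742), from 75.7 and 88.3 FPKM to 57.8 and 55.2. CISD3, a small 2Fe-2S protein, fell by 0.48 (adjusted p = 5e-04) and UQCRFS1, the Rieske protein of complex III, by 0.42 (adjusted p = 0.00156). The counts were 0 higher and 9 lower with median ratios, 1 and 5 with quantiles, and 4 and 3 with equal totals. CISD3 was the member of this list whose ES effect differed between the cell kinds, by -0.54 (adjusted p = 0.0105).

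Of 19 cytosolic and nuclear iron-sulfur proteins 18 were tested, XDH being listed at 0. With ES 3 were called higher and 0 lower in control cells, against 6.74% and 1% of all genes, and 11 higher and 4 lower in FDX1-OE cells, against 47.1% and 13.7%. RSAD2 (viperin), an interferon-induced radical SAM enzyme, was listed at 0.0795 and 0.0412 FPKM in FDX1-OE DMSO and at 13.0 and 18.2 in FDX1-OE ES, a log2 difference of 3.95 (limma adjusted p = 2.43e-06). In control cells it was at 0.0568 and 0.158 FPKM in DMSO and at 1.09 and 1.25 in ES (0.97, adjusted p = 0.0156). KIF4A, a mitotic kinesin that binds a cluster, rose by 0.98 in FDX1-OE cells (adjusted p = 2.29e-05), CDKAL1, a tRNA-modifying enzyme, by 0.91 (adjusted p = 0.000114) and the DNA helicase BRIP1 by 0.90 (adjusted p = 0.000122). NTHL1, a DNA glycosylase, fell by 1.03 (adjusted p = 0.000182), from 25.8 and 25.4 FPKM to 10.5 and 13.8. The ES effect differed between the cell kinds for RSAD2 (2.98, adjusted p = 0.000524), BRIP1 (0.69, adjusted p = 0.0125), CDKAL1 (0.54, adjusted p = 0.0259) and KIF4A (0.48, adjusted p = 0.0133) upward and for NTHL1 (-0.89, adjusted p = 0.0119) downward. With median-ratio scaling the list in FDX1-OE cells had 8 higher and 5 lower, with quantiles 7 and 4, and with equal totals 12 and 3.

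The lists set side by side give, as medians of the log2 difference with ES in FDX1-OE cells, 0.244 for the 9 members, 0.178 for the other mitochondrial cluster genes, -0.156 for cytosolic assembly, -0.0891 for the mitochondrial iron-sulfur proteins and 0.329 for the cytosolic and nuclear ones, beside 0.248 for all genes tested. In control cells they were 0.104, 0.162, 0.0373, 0.0892 and 0.044, beside 0.0945. Between FDX1-OE and control cells in ES the counts of called genes, higher then lower, were 1 and 1 for the other mitochondrial cluster genes, 1 and 2 for cytosolic assembly, 0 and 5 for the mitochondrial proteins, and 9 and 4 for the cytosolic and nuclear ones, against 31.1% and 10.4% of all genes. No member of these lists was called between FDX1-OE and control in DMSO, and none there had an unadjusted p below 0.05, against 420 of all 12063 genes.

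**Figure D5:**
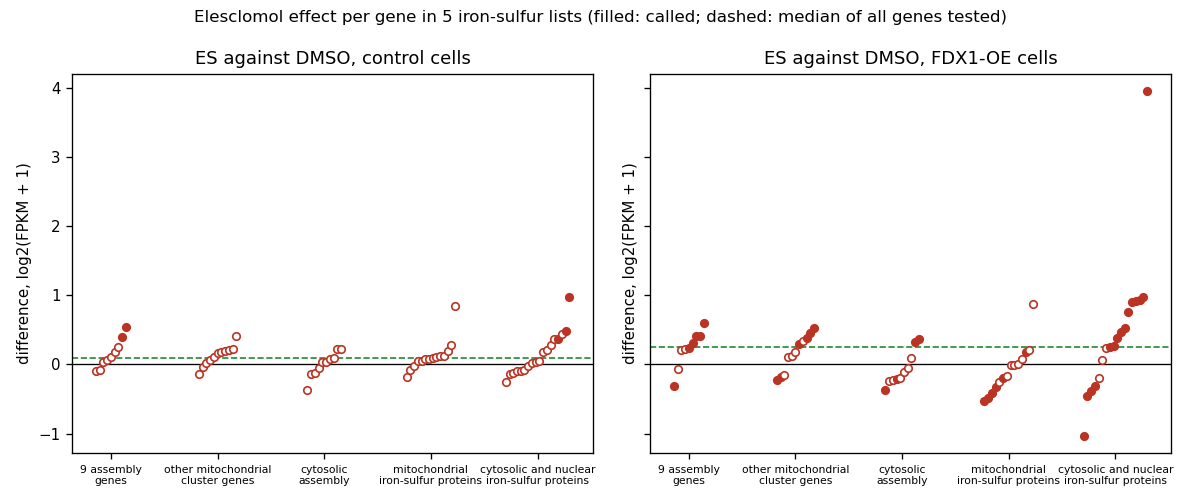
Difference between ES and DMSO in log2(FPKM + 1) (vertical axis) for each tested gene of 5 lists, ordered by size within a list, control cells on the left and FDX1-OE cells on the right, filled where called, dashed at the median of all genes tested. In FDX1-OE cells 5 mitochondrial iron-sulfur proteins are called below 0 and 1 above, and 11 cytosolic and nuclear ones above 0 and 4 below, with RSAD2 at 3.95 above the rest.

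The 9 genes did not share one pattern over the 8 libraries. Likeness was taken as the root mean square difference of log2(FPKM + 1) after centring each gene on its own mean over the 8 libraries. The closest members were LYRM4 and NFU1 (0.079), and NFU1 was also nearest to HSCB (0.0874), ISCA2 (0.115) and ISCA1 (0.155). NFS1 and GLRX5 were nearest to each other (0.124), ISCU was nearest to BOLA3 (0.137), and BOLA3 to ISCA2 (0.117). Farthest from the mean over members were NFS1 (0.232) and ISCU (0.195). Among all genes tested, those nearest to that mean were DPYSL2 (0.0181), ATP6V1B2 (0.0235) and CCDC69 (0.024).

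Several members share bases with neighbouring genes, which bears on values whose strand handling is not given in the sources used here. Gene models were taken from GENCODE 29 on GRCh38, not the hg19 build named in the submitters' processing notes. NFS1 (chr20:35668055-35699359, minus strand) shares 88 exonic bases with ROMO1 on the other strand, out of 6024 exonic bases, and 289 with AL109827.1, which was listed at no more than 1.52 FPKM. ROMO1 was listed at 51.6 and 51.0 FPKM in FDX1-OE DMSO and at 29.6 and 39.7 in FDX1-OE ES (log2 difference -0.57, limma adjusted p = 0.00516), and its part in the NFS1 values was not tested. GLRX5 (chr14:95533503-95544724, plus strand) shares 391 exonic bases with the antisense gene SNHG10, which fell by 0.49 with ES in FDX1-OE cells (adjusted p = 0.0103). HSCB (chr22:28742031-28757515, plus strand) shares 301 exonic bases with CHEK2, and ISCA2 (chr14:74493720-74497106, plus strand) 103 with NPC2. ISCU (chr12:108562582-108569384, plus strand), ISCA1 (chr9:86264546-86283102, minus strand), NFU1 (chr2:69395750-69437628, minus strand) and BOLA3 (chr2:74135398-74147994, minus strand) shared none. LYRM4 (chr6:5102593-5260939, minus strand) overlaps MIR3691 with 0 exonic bases shared. Its antisense gene LYRM4-AS1 rose by 0.85 with ES in FDX1-OE cells (adjusted p = 0.00184), from 1.46 and 2.06 FPKM to 3.57 and 4.33. The pseudogenes ISCUP1, NFU1P1 and NFU1P2 were listed at 0 in every library, and ISCA1P1 at no more than 0.0855 FPKM.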

How the data were processed

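RNA sequencing of 8 WSU-DLCL2 libraries was used, in 4 groups of 2 (samples mapped by the labels). Each deposited file holds 1 value per gene, taken as FPKM made by the authors; no header names the unit, which was read from the values, and the absolute depth is unknown. Per the submitters' processing notes HISAT2, HTSeq, R 3.2.0 and hg19 were used, with no role given; strand handling is not given in the sources used here. Genes at 1 FPKM or more in at least 2 libraries (12063) were tested as log2(FPKM + 1) with no further scaling. limma 3.58.1 in R 4.3.3 fitted 4 group means with a mean-variance trend (4 residual and 4.25 prior degrees of freedom), two-sided, Benjamini-Hochberg adjusted over all genes tested. On simulated data for ES in FDX1-OE cells over 12063 genes, the fit recovered 58% of 100 genes changed by 0.5 and 90% of 100 changed by 1 on the log2 scale. The simulation changed 200 genes and gave all groups the same spread. In the data 47.1% of genes were called higher and 13.7% lower there, and the FDX1-OE ES replicates differed more. The recovered shares therefore need not hold for that comparison. In the files 1059 entries share a symbol, 38 of them tested, and none is named. Some genes of the lists are not reported here by name. The members and lists were chosen with earlier results of these data known. Of each other list, up to 3 genes with the smallest p for ES in FDX1-OE cells and up to 3 in the difference of the ES effects were named. Alternatives were pseudocounts, filters, scalings, library weights, a replicate block, fewer groups and leaving out each library. Figures were drawn with matplotlib 3.10.9.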

Additional observations from a re-analysis of the deposited data

How the results depend on the processing

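Depth is unknown, and 2 libraries a group limit the precision. Of 1243 gene values recomputed, 1072 kept direction and side of the threshold, 109 lost the call, 27 gained it and 35 changed direction, 2 of these (NFU1 and FDX1 with median ratios in FDX1-OE cells) with a call in either fit. The cause of each change was not tested. Members called between FDX1-OE and control in ES numbered 0 higher and 1 lower. With equal totals they were 4 and 0, with median ratios 0 and 3, with quantiles 0 and 3, and with no filter, library weights or only the groups compared 0 and 0. Leaving out a library gave 0 to 1 higher and 0 to 1 lower. With ES in control cells 2 were higher, 1 with no filter, median ratios or quantiles, 3 with library weights, and 0 to 2 without a library. With ES in FDX1-OE cells 5 were higher and 1 lower, 1 and 2 with median ratios, 1 and 1 with quantiles, 7 and 0 with equal totals, and 1 to 5 higher and 0 to 1 lower without a library, the lowest without FDX1-OE DMSO replicate 2. The difference of the ES effects had 0 called, 1 higher with equal totals, and 0 to 1 higher without a library. Pseudocounts of 0.1 and 0.5 and the filter of 1 FPKM in all 8 libraries left these counts as they were, and RSAD2 could not be fitted under that filter.

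With median ratios, signs changed between FDX1-OE and control in ES for ISCU (-0.077), LYRM4 (-0.12) and NFU1 (-0.049), with ES in control cells for LYRM4 (-0.046) and GLRX5 (-0.073), with ES in FDX1-OE cells for LYRM4 (-0.055), ISCA2 (-0.040), NFU1 (-0.034) and FDX1 (-0.23), and in the difference of the ES effects for ISCU (-0.10), LYRM4 (-0.0085) and NFU1 (-0.10). With quantiles they changed for LYRM4 between FDX1-OE and control in ES (-0.079), for LYRM4 (-0.0087) and HSCB (-0.020) in control cells, for ISCA2 in FDX1-OE cells (-0.17) and for NFU1 in the difference (-0.011). With equal totals they changed for BOLA3 between FDX1-OE and control in ES (0.072), for GLRX5 (0.082) and MMS19 (0.024) in FDX1-OE cells, and for GLRX5 (0.036), ISCA2 (0.069) and BOLA3 (0.051) in the difference. Leaving out a library gave ranges that cross 0: in DMSO for NFU1 (-0.0013 to 0.11) and BOLA3 (-0.022 to 0.058), between FDX1-OE and control in ES for LYRM4 (-0.030 to 0.13) and BOLA3 (-0.18 to 0.048), in control cells for NFS1 (-0.20 to 0.028), LYRM4 (-0.0098 to 0.14) and HSCB (-0.053 to 0.26), in FDX1-OE cells for GLRX5 (-0.12 to 0.00028), and in the difference for ISCA2 (-0.11 to 0.0096) and BOLA3 (-0.20 to 0.030). None of these was called with the deposited scaling, other than NFU1 with ES in FDX1-OE cells.

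The replicate numbers did not pair the libraries: the correlations of replicate deviations between groups lay between -0.0499 and 0.0793. With the replicate number as a block, members called with ES in control cells went from 2 to 1, BOLA3 being lost (adjusted p = 0.0509 by limma), and no other call among the members changed. Over all genes the block moved the calls in control cells from 813 higher and 121 lower to 627 and 78.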

Other observations

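Some genes of the same pathways lie outside the rule for named genes and were chosen after their values were seen. HSPA9, the chaperone that works with HSCB, fell by 0.18 on the log2 scale with ES in FDX1-OE cells (limma adjusted p = 0.0407), from 122 and 120 FPKM to 112 and 102. In control cells HSPA9 stood at -0.14 (adjusted p = 0.211), and the difference between these ES effects was -0.041 (adjusted p = 0.775). HSCB rose in FDX1-OE cells, a rise not called with median ratios or quantiles.

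Of recipient proteins, lipoic acid synthase (LIAS), which depends on NFU1 and BOLA3, was listed at 6.66 and 6.87 FPKM in FDX1-OE DMSO and at 7.38 and 6.20 in FDX1-OE ES (log2 difference 0.0011, adjusted p = 0.995). ACO1, the cytosolic aconitase that acts as iron regulatory protein when it lacks its cluster, rose by 0.94 with ES in FDX1-OE cells (adjusted p = 0.000242), from 0.959 and 1.06 FPKM to 2.83 and 2.86. It stood at 0.43 in control cells (adjusted p = 0.0531), and the difference between these ES effects was not called (0.50, limma adjusted p = 0.0586).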
